A study of Homo sapiens with 9 samples.

Results

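The comparison described here set 3 RNA-seq libraries of OVCAR3 cells with a knockdown of *CTCFL* (CTCFL-KD, named BORIS_KD in the labels) against 3 libraries of Control cells. These are 6 of the 9 libraries of the series, chosen by their labels and not by any measured value. OVCAR3 is an established human cell line of epithelial ovarian cancer. All groups were grown in RPMI-1640 medium with serum and bovine insulin. Control cells are labelled as having no *CTCFL* treatment, and the methods of the study name a transient transfection with 2 µg of a LacZ plasmid and a harvest 48 h later. The CTCFL-KD libraries were made from RNA of a separate, earlier knockdown experiment. A supplementary table of the study names its agent as a small interfering RNA (siRNA), and the sequence of that agent and the harvest time are not given in the sources used here. A non-targeting control of that experiment was not analysed here. Each of the 3 biological replicates per group pooled 3 technical replicates. The effect of *CTCFL* loss, the delivery of the knocking-down agent, the LacZ plasmid in the Control cells and the difference between the experiments cannot be told apart in these libraries. All statements on CTCFL-KD below are therefore statements on this contrast of samples.

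*CTCFL*, also called BORIS, is a paralog of *CTCF*, the zinc finger protein that binds insulators and, with cohesin, shapes chromatin loops. Both proteins recognise similar GC-rich DNA sites. *CTCFL* is normally active in the male germ line and is switched on in some cancers, ovarian carcinoma among them, which places it with the cancer-testis genes.

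Total counts were between 19006695 and 24490080 in Control and between 14332622 and 17995196 in CTCFL-KD. Levels are given as CPM, the depth-scaled counts of a gene after TMM scaling, a correction for unequal composition of the libraries. A count of 3, which is what a count of 0 still allows, stood for 0.115 to 0.267 CPM, and such limits cover counting error only. *CTCFL* (chr20:57495966-57525652, minus strand of GRCh38) had 6, 9 and 10 counts in Control and 0, 1 and 0 counts in CTCFL-KD. It was at least 1.89-fold lower in CTCFL-KD, where all libraries lay below the Control libraries, so the labels held for the targeted gene. With so few counts it was removed by the filter on low counts, and its adjusted p of 0.00595 came from the same model without that filter. *CTCF* had 76.3, 84.0 and 78.3 CPM in Control against 53.5, 63.2 and 61.9 CPM after the knockdown, without overlap. The log2 fold change was -0.42 (SE 0.14) with an adjusted p of 0.0514, and without CTCFL-KD replicate 1 it was -0.35 with an adjusted p of 0.00017. Markers of the labelled cells were present: *PAX8*, a transcription factor of Müllerian epithelium, lay between 556 and 576 CPM in Control and between 703 and 965 CPM in CTCFL-KD.

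Replicate 1 of CTCFL-KD stood apart from its replicates. Mitochondrial genes took 11.8% of its counts, against 9.64% and 7.80% in CTCFL-KD replicates 2 and 3 and 6.16% to 6.52% in Control. Its 100 most abundant genes took 33.8% of its counts, against 22.8% to 25.6% in the other 5 libraries. Its levels followed transcript length: among genes of at least 5 CPM, the median log2 ratio to the Control mean was 0.85 in the fifth with the shortest transcripts and -0.61 in the fifth with the longest. In replicates 2 and 3 the same medians were -0.12 and -0.12 for the shortest and 0.07 and 0.06 for the longest. GC content moved with the levels in all 3 CTCFL-KD libraries. From the fifth of genes with the lowest GC content to that with the highest, the medians ran from -0.77 to 0.69 in replicate 1, from -0.33 to 0.10 in replicate 2 and from -0.26 to 0.10 in replicate 3. The part of length and GC content in single results was not tested beyond the alternatives given, and values without replicate 1 are given beside many of the results below. A principal component analysis of the 500 most variable genes gave a first component with 95% of the variance that separated the groups, and a second with 3.47% that separated replicate 1 of CTCFL-KD from its replicates.

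**Figure D1:**
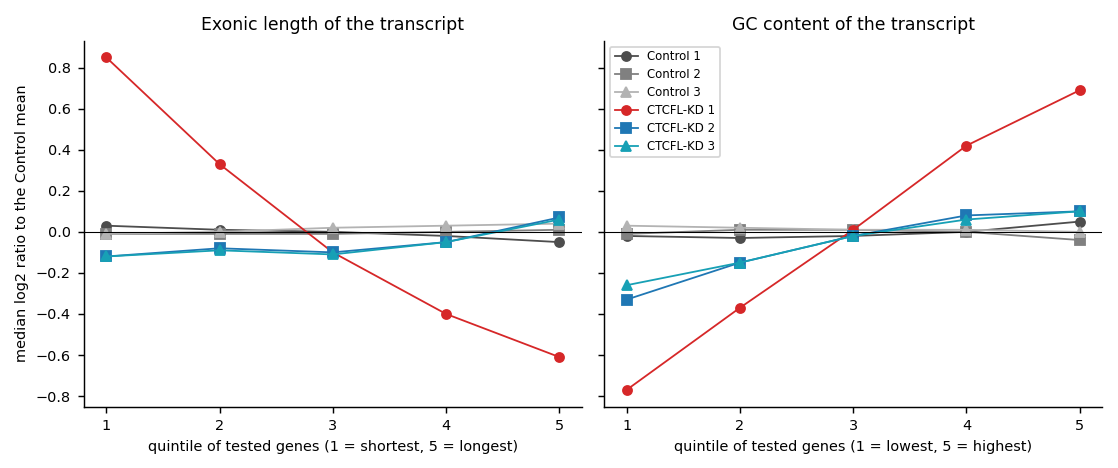
Median log2 ratio of each library to the Control mean (y axis) over genes of at least 5 CPM, in 5 equal bins by exonic transcript length (left) or GC content (right), with 1 line per library. CTCFL-KD replicate 1 falls from 0.85 to -0.61 with length, while the other CTCFL-KD libraries stay between -0.12 and 0.07, and all 3 CTCFL-KD lines rise with GC content.

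Of 17205 genes that passed the filter on low counts, 3813 (22.2%) were differentially expressed genes (DEGs). A DEG had an absolute log2 fold change above 1 together with a Benjamini-Hochberg adjusted p under 0.05 in edgeR's quasi-likelihood test. Of the DEGs, 2507 were higher in CTCFL-KD (14.6% of the genes tested) and 1306 lower (7.59%). These shares are the background for the gene lists below, and the median log2 fold change over all genes tested was 0.08. Counts of the lists are those of the fit to all 6 libraries, and where a list had few DEGs in a direction, that number often moved by 1 gene under other settings. By the adjusted p alone, 3581 genes rose (20.8%) and 2749 fell (16.0%). Without CTCFL-KD replicate 1 the number that passed the adjusted p was 12154, with 6170 higher and 5984 lower, while the number of DEGs was 4217. Of the 3813 DEGs, 3255 (85.4%) were also DEGs in the same direction without that library, which is 77.2% of the DEGs found then. Large changes leaned upward: 788 DEGs were higher and 367 lower by more than 2 on the log2 scale, and 103 and 28 by more than 5. Among 13504 protein-coding genes, 2099 were higher and 989 lower. All 3 CTCFL-KD libraries lay above all 3 Control libraries in 29.3% of the genes tested and below them in 27.9%, which makes 57.2% of genes whose groups did not overlap.

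The 10 protein-coding DEGs with the highest and the 10 with the lowest fold changes were taken from those whose groups did not overlap and whose mean reached 10 CPM in one group. Those with the highest fold changes were nearly silent in Control. *COL1A2* (ENSG00000164692.18, chr7:94394895-94431227), which encodes a chain of type I collagen, had 0 counts in each Control library and 13.9, 14.0 and 13.3 CPM in CTCFL-KD. *PGAP4* (chr9:101473170-101533537), a glycosyltransferase that modifies GPI anchors in the Golgi, also had 0 counts in each Control library and 11.4 to 12.7 CPM in CTCFL-KD, at least 87.8-fold higher, and the bound for *COL1A2* was above that. *MAN1A1* (chr6:119177205-119349761), a Golgi mannosidase of N-glycan trimming, was at least 161-fold higher, with 11.2, 26.3 and 29.0 CPM in CTCFL-KD. *BMP3*, a divergent BMP ligand that opposes other BMPs, was at least 178-fold higher, with 13.1, 32.7 and 27.5 CPM. In these 4 genes the groups were far apart in every library. The bounds for *BCL11A*, a zinc finger repressor known for silencing fetal globin, *NPY*, which encodes neuropeptide Y, and *OPRPN*, which encodes a secreted opiorphin precursor, were 73.0-fold, 83.0-fold and 94.3-fold. *NPY* had 19.8, 7.63 and 6.8 CPM in CTCFL-KD, and without replicate 1 its bound was 52.5-fold. *VIT*, which encodes the matrix protein vitrin, had 0.296, 0.268 and 0.399 CPM in Control and 84.1, 86.4 and 92.6 CPM in CTCFL-KD, a 273-fold difference of the means and its CTCFL-KD libraries lay close together. *EPGN*, which encodes epigen, a ligand of the EGF receptor, rose by 7.27 on the log2 scale (SE 0.50) and *TMPRSS15*, the intestinal enteropeptidase, by 7.32 (SE 0.41).

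*CYP24A1* (chr20:54153446-54173986), the enzyme that breaks down active vitamin D, had the lowest fold change among the genes chosen in this way, with 19.5, 22.1 and 19.3 CPM in Control and 0, 0 and 2 counts in CTCFL-KD, which was at least 101-fold lower. *TGM2*, which encodes a transglutaminase that crosslinks proteins, was the most abundant of the group, with 511 ± 13.2 CPM in Control (SD, n = 3) and 12.6, 15.1 and 18.2 CPM in CTCFL-KD, 33.4-fold lower. *IGF2BP1*, an RNA-binding protein of fetal tissue and tumours, had 98.1, 106 and 113 CPM in Control and 2.67, 3.46 and 3.67 CPM after the knockdown. For these 3 genes the highest CTCFL-KD library was more than an order of magnitude under the lowest Control library. *TGFBI*, a matrix protein induced by TGF-beta, was 42.9-fold lower, *MAP2*, a neuronal microtubule-binding protein, 28.4-fold, and *ITGB3*, the beta-3 integrin, 23.6-fold. *MMP7*, or matrilysin, was 62.2-fold lower. Its level in CTCFL-KD differed between libraries, with 0.712 CPM in replicate 1 and 0.0587 and 0.216 CPM in replicates 2 and 3, and its log2 fold change of -6.13 was -7.13 without replicate 1. The actin-like *ACTBL2*, whose reads may be shared with other actin genes, was 62.0-fold lower, the keratin gene *KRT81* 30.0-fold and *IL32*, an inflammatory cytokine gene, 24.3-fold. All 20 genes chosen for the highest and lowest fold changes were also DEGs in all 6 fits without 1 library.

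**Figure D2:**
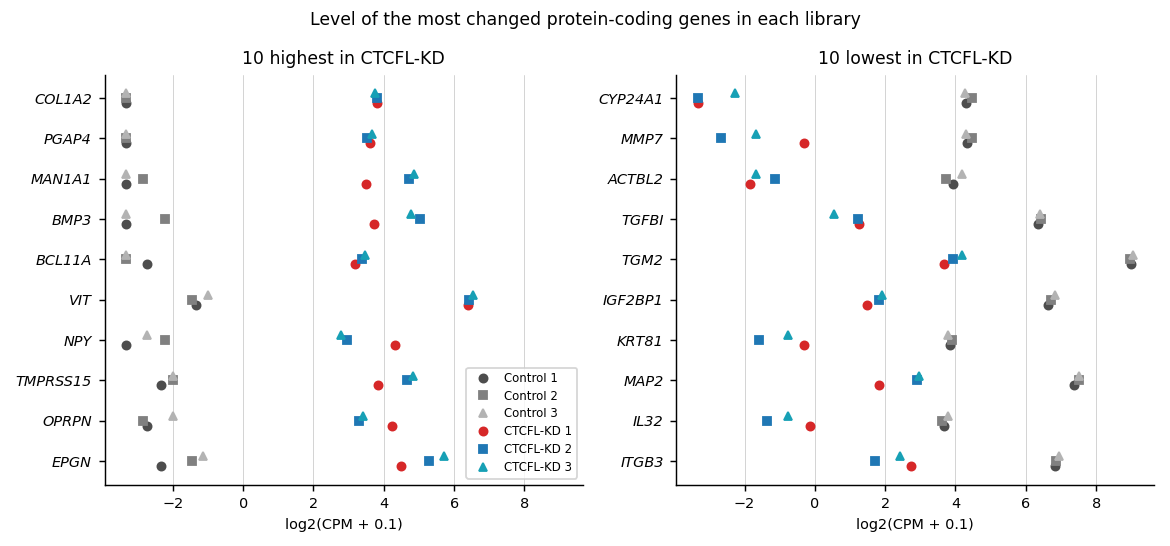
Levels of the 10 protein-coding genes with the highest (left) and the 10 with the lowest (right) log2 fold change in CTCFL-KD, as log2(CPM + 0.1) on the x axis, with 1 symbol per library and no error bars. The 3 Control and 3 CTCFL-KD libraries form separate groups for each gene, and the genes on the left lie at or near 0 counts in Control.

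On a wider scale, 58 genes had at most 3 counts in each Control library and at least 1 CPM in each CTCFL-KD library. Of these, 54 were protein coding, against 13504 of the 17205 genes tested. Of the 58, 43 also had at most 3 counts in each library of CTCFL-OE, the third group of the series, in which *CTCFL* was overexpressed from a plasmid of the same backbone. In the other direction, 31 genes had at least 1 CPM in each Control library and at most 3 counts in each CTCFL-KD library, 17 of them protein coding. Of the 31, 29 had more than 3 counts in each CTCFL-OE library. At 10 CPM the numbers were 4 and 1: *COL1A2*, *PGAP4*, *MAN1A1* and *BMP3* were at most at 3 counts in each CTCFL-OE library too, and *CYP24A1* was above 3 counts in each. The genes that appeared lay on 18 chromosomes and those that were lost on 17. No share over all genes stands beside the CTCFL-OE numbers, and CTCFL-OE and Control cells both came from the plasmid transfections.

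For 8 of the genes named here, the study lists a DNA site predicted to bind CTCFL. In 7 of them the listed sequence was found in GRCh38 within 1 base of the listed position, and the positions printed here are those of the match. Of these, the sites of *VEGFA*, *CXCL8*, *MAP1B* and *TGFBI* lie 580, 518, 50 and 63 bases before the start of the gene's canonical transcript in GENCODE and are shown because they are the ones nearest to the start of a DEG. The sites of *CALB2* and *CYP24A1* lie in introns or at their edges, and that of *MMP7* lies beyond its annotated end. Capitals mark AGGGGGC, the letters shared by 4 of the 7 sites.
VEGFA, chr6:43769631-43769644, plus strand: cactAGGGGGCgct
CXCL8, chr4:73740051-73740058, minus strand: AGGGGGCa
MAP1B, chr5:72107425-72107433, plus strand: cAGGGGGCg
TGFBI, chr5:136028925-136028933, minus strand: cgccagggg
*VEGFA* was a DEG higher in CTCFL-KD and the other 3 were DEGs lower in it, so these 4 genes, searched because they were DEGs, moved both ways. Other annotated transcripts of *MAP1B* start before its site. Over RefSeq promoters of GRCh38.p14, taken as 250 bases before to 50 bases after a gene's start, AGGGGGC on either strand was present in 22.2% of 1628 protein-coding DEGs that were higher, in 19.1% of 775 that were lower and in 20.3% of all 10930 protein-coding genes tested. A match of these letters is a description and not a measured binding site. For *VEGFA* and *MAP1B* the study also reports occupancy by CTCFL and CTCF at the predicted sites, from public ChIP-seq data of another ovarian cancer line. Binding was not measured in the cells of these libraries.

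Inflammatory genes were lower in CTCFL-KD as a group. Of 18 tested genes of NF-kB signalling and its cytokines, 17 were DEGs and all of these fell, with a list median of -2.11 on the log2 scale. The exception, *ICAM1*, had a log2 fold change of -0.61 (adjusted p = 0.214). Without 1 library in turn, 15 to 18 genes of the list were DEGs, with the members tested varying between fits. *CCL2* and *IL11* were not DEGs without each Control library in turn. *CXCL8*, the chemokine that attracts neutrophils, had 34.5, 35.4 and 36.3 CPM in Control against 0.89, 2.05 and 3.08 CPM, a log2 fold change of -4.09 (SE 0.37, adjusted p = 0.00054). *TNF*, *IL6*, *CXCL1*, *CXCL2*, *CXCL3*, *CCL2* and *CCL20*, all secreted ligands, had log2 fold changes between -3.61 and -1.79. The subunits *NFKB1*, *NFKB2* and *RELB* had log2 fold changes between -1.51 and -1.29. The inhibitors *NFKBIA* and *TNFAIP3* (A20) fell by 1.28 and 2.77. The list medians in the single CTCFL-KD libraries were -1.83, -1.65 and -1.49.

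Of 18 ERK output genes tested, 10 fell and 2 rose by the adjusted p, and 6 were DEGs lower and none higher, with a median of -0.80. Without CTCFL-KD replicate 1, 12 fell and 5 rose by the adjusted p, and 1 was a DEG higher. *FOSL1*, a subunit of the AP-1 transcription factor, had 13.1, 9.85 and 11.4 CPM in Control and 0.979, 0.587 and 0.648 CPM in CTCFL-KD, 15.5-fold lower. *DUSP6*, the phosphatase that turns off ERK, had 7.95, 8.43 and 10.1 CPM against 3.92, 4.28 and 3.73 CPM. The groups did not overlap in either gene. *CCND1* (cyclin D1), *IER3*, *ETV4* and *DUSP4* were the other 4 that fell. Of 18 AP-1 and immediate early genes, 4 were DEGs lower (*FOSL1*, *KLF10*, *JUNB* and *FOSL2*) and *KLF4* was higher, with a median of -0.21, while *FOS* overlapped between the groups (4.44 to 5.48 CPM in Control, 4.69 to 9.61 CPM in CTCFL-KD). *KLF4* was a DEG in 1 of the 6 fits without 1 library, that without CTCFL-KD replicate 1, where 3 genes of the list were DEGs higher and the median was -0.08. With length and GC offsets none was higher, 8 were lower and the median was -0.44. The DESeq2 median was 0.07, which also covers a listed gene removed by the filter on low counts.

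Genes of the TGF-beta and BMP responses moved both ways. In the TGF-beta list 6 of 20 tested genes were DEGs lower and 4 higher, with a median of -0.31. Those that fell included the response and feedback genes *TGFBI*, *PMEPA1*, *SMAD7* and *SKIL* and the signal transducer *SMAD3*. Those that rose were *LRRC32*, which holds latent TGF-beta on the cell surface, the receptors *TGFBR1* and *TGFBR3* and the ligand *TGFB3*. In the BMP list of 16 tested genes, all 4 ID genes fell, which encode partners that block basic helix-loop-helix factors and are classical BMP targets. *ID1* had 538, 474 and 515 CPM in Control against 176, 95.5 and 104 CPM, a log2 fold change of -2.03 (SE 0.27, adjusted p = 0.00195). *ID2* fell by 2.64, *ID3* by 2.24 and *ID4* by 1.08 on the log2 scale. *SMAD6*, *SMAD9* and the ligand *BMP4* also fell, whereas the ligand *BMP7* (log2 fold change 2.54), the receptor *BMPR1B* (1.65), the pseudoreceptor *BAMBI* (1.52) and the antagonist *NOG* (1.43) rose. The median of the list was -0.75.

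In the Wnt and Notch lists more genes were higher than lower. Of 27 Wnt genes tested, 10 were DEGs higher and 4 lower, with a median of 0.37. The 10 included 4 Frizzled receptors (*FZD8*, *FZD4*, *FZD7* and *FZD2*, with log2 fold changes of 3.11, 2.54, 2.47 and 1.60) and the co-receptors *LRP5* and *LRP6*. *LGR5*, a receptor for R-spondins and a stem cell marker, had 4.3, 5.02 and 3.99 CPM in Control and 27.9, 64.7 and 71.7 CPM in CTCFL-KD, 12.3-fold higher. The 4 that fell were the ligands *WNT7A* and *WNT9A*, the secreted inhibitor *NOTUM* and the transcription factor *TCF7*. *AXIN2*, the feedback target of the pathway, had 2.87, 3.95 and 4.74 CPM against 5.79, 9.09 and 8.8 CPM, a log2 fold change of 1.04 that made it a DEG in 2 of the 6 fits without 1 library, those without Control replicate 3 and without CTCFL-KD replicate 1. In the Notch list 7 of 15 tested genes were DEGs higher: the ligands *DLL1*, *DLL3* and *JAG1*, the receptors *NOTCH1* and *NOTCH3*, the glycosyltransferase *LFNG* and the target *HEY1*. The median was 0.79, and *NOTCH3* went from 208, 210.0 and 213 CPM to 349, 471 and 460.0 CPM. *MAML2* was the only DEG that fell, and it was a DEG in 1 of the 6 fits without 1 library, that without CTCFL-KD replicate 3. *NOTCH3* was one in 3 of the 6. With length and GC offsets 4 Notch genes were DEGs higher, and *NOTCH3* was at 0.71.

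**Figure D3:**
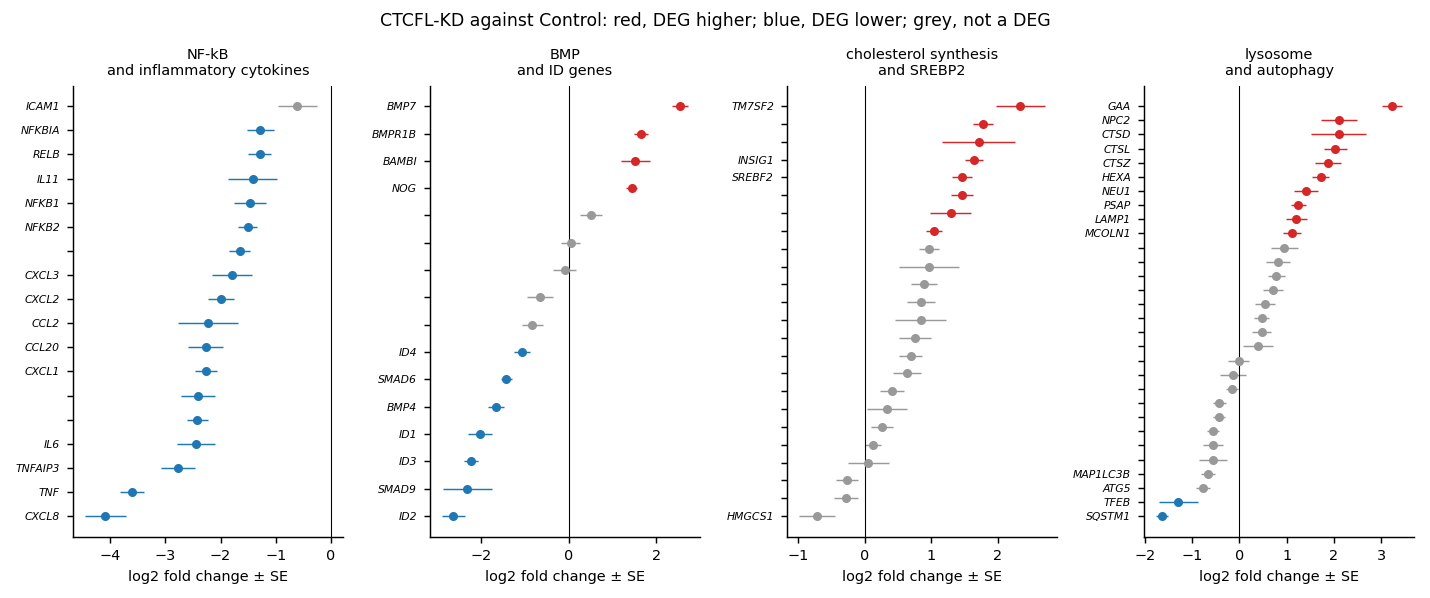
Log2 fold change of CTCFL-KD against Control (x axis, bars are standard errors of the edgeR fit to 3 libraries per group) for tested genes of 4 lists, with DEGs in colour and labels on genes named in the text. The NF-kB and cytokine genes all lie below 0, the BMP list splits into both directions, and the cholesterol and lysosome lists lean to higher levels.

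Part of the secretory and nutrient stress genes rose. None of the 22 tested genes of ER chaperones and the unfolded protein response had a negative log2 fold change, 15 passed the adjusted p and 7 were DEGs, with a median of 0.85. *XBP1*, the transcription factor that drives ER expansion, had 114, 107 and 118 CPM in Control against 512, 496 and 601 CPM, a log2 fold change of 2.25 (SE 0.16, adjusted p = 0.00024). The chaperone *HSPA5* (BiP) had 935, 975 and 979 CPM against 2156, 1511 and 1651 CPM. It passed the adjusted p (0.0124) without reaching the threshold on the fold. The other DEGs were *ERN1*, *MANF*, *PDIA3*, *CRELD2*, *DNAJB9* and *PDIA4*. The number of DEGs was 2, 3 and 4 without Control replicates 1, 2 and 3, and 6 without CTCFL-KD replicate 1. Of 24 integrated stress response genes, 9 were DEGs higher and none lower, with a median of 0.80. *STC2*, a secreted glycoprotein, had 18.5 to 19.4 CPM in Control and 121, 106 and 235 CPM in CTCFL-KD. *INHBE* and *GDF15*, both secreted factors of the TGF-beta family, had log2 fold changes of 3.96 and 2.46. *ATF4*, the transcription factor of the response, had 222, 213 and 209 CPM in Control and 365, 161 and 175 CPM in CTCFL-KD, so replicate 1 lay above and the others below all Control libraries. Without that replicate its log2 fold change was -0.36 in place of 0.12. The 9 DEGs were 4 without each Control library in turn and 5 without CTCFL-KD replicate 3. Of 20 cytosolic tRNA synthetases, *QARS1* was the 1 DEG (140.0, 140.0 and 139 CPM against 359, 245 and 242 CPM), and it was a DEG in 2 of the 6 fits without 1 library. With the replicate number as a block its log2 fold change was 0.99, and it was no DEG. The median of that list was -0.21.

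Heat shock genes fell in part, as did part of the NRF2 list, and part of the hypoxia targets rose. All 14 heat shock genes tested had negative log2 fold changes, 7 passed the adjusted p and 2 were DEGs (*HSPH1* and *HSPA4*), with a median of -0.63. Without CTCFL-KD replicate 1 all 14 passed the adjusted p and 4 were DEGs. *HSPH1*, a large chaperone that works with HSP70, had 205, 213 and 214 CPM against 81.3, 99.9 and 99.7 CPM. In the NRF2 and glutathione list 8 of 21 genes fell by the adjusted p, 6 of them as DEGs, and *SLC7A11*, the cystine transporter, was higher, though in only 1 of the 6 fits without 1 library (that without CTCFL-KD replicate 1). *TXNRD1*, thioredoxin reductase, had 564, 591 and 599 CPM in Control against 122, 160.0 and 157 CPM, a log2 fold change of -2.00 (SE 0.17, adjusted p = 0.0004). *NQO1* (111, 111 and 117 CPM against 78.9, 36.8 and 33.0 CPM) was a DEG in 1 of the 6 fits without 1 library. It had a log2 fold change of -1.19, or -1.70 without CTCFL-KD replicate 1. The list median was -0.40, or -0.87 without that replicate. Of 21 hypoxia targets tested, 12 rose by the adjusted p, 7 were DEGs higher and none was lower, with a median of 0.81. *VEGFA*, the angiogenic growth factor, had 13.7, 14.6 and 13.9 CPM in Control against 47.7, 61.7 and 96.2 CPM, a log2 fold change of 2.29 (SE 0.27, adjusted p = 0.00141). *CA9*, a carbonic anhydrase, was at least 6.28-fold higher at a level near 1 CPM. Replicate 3 led this list, with library medians of 0.37, 0.54 and 1.29. The number of DEGs was 2 without it and 2, 3 and 2 without Control replicates 1, 2 and 3. Glycolysis genes had a median of -0.09 with 1 DEG of 20, *PFKFB4*, whose levels in CTCFL-KD were 26.4, 23.9 and 82.0 CPM against 9.44, 10.6 and 8.33 CPM in Control. It was no DEG without each Control library in turn. Without CTCFL-KD replicate 1 the median of the glycolysis list was -0.26, 10 genes fell by the adjusted p and 2 were DEGs higher. With length and GC offsets the median was -0.30, and 2 genes were DEGs lower without CTCFL-KD replicate 3.

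Part of the lipid synthesis and lysosomal genes rose. Of 24 tested genes of cholesterol synthesis, 8 were DEGs higher and none lower, and the median was 0.84. *TM7SF2*, a sterol reductase, had 83.4, 76.2 and 80.2 CPM in Control and 653, 273 and 290.0 CPM after the knockdown. The log2 fold change was 2.34 (SE 0.37), or 1.81 without CTCFL-KD replicate 1. *SREBF2*, the regulator of the pathway, rose by 1.46, and *INSIG1*, which holds it in the ER, by 1.64. *HMGCS1*, an early enzyme, went the other way in level (502, 566 and 538 CPM against 206, 411 and 360.0 CPM) without passing the test (adjusted p = 0.0749), and passed it without CTCFL-KD replicate 1 (-0.48, adjusted p = 5.4e-06). In the fatty acid list 4 of 17 genes were DEGs higher, namely *SREBF1*, *FADS2*, *SCD* and *MLXIPL*. The list median was 0.28, or 0.45 without CTCFL-KD replicate 1. *SREBF1* had 92.0, 92.0 and 90.3 CPM in Control and 435, 356 and 381 CPM in CTCFL-KD, 4.27-fold higher, while *FASN*, fatty acid synthase, overlapped between the groups (625 to 665 and 622 to 876 CPM) and passed the adjusted p without CTCFL-KD replicate 1 (0.42). Of 31 lysosome and autophagy genes, 11 were DEGs higher and 2 lower, with a median of 0.55. The 11 included the lysosomal hydrolases and lipid-handling proteins *GAA*, *NPC2*, *CTSD*, *CTSL*, *CTSZ*, *HEXA*, *NEU1* and *PSAP* and the membrane proteins *LAMP1* and *MCOLN1*. *GAA*, the acid glucosidase that digests glycogen, had 24.7, 22.9 and 24.1 CPM against 286, 195 and 194 CPM, 9.39-fold higher. The 2 that fell were the autophagy receptor *SQSTM1* (290.0, 291 and 292 CPM against 91.4, 96.6 and 95.2 CPM) and *TFEB*, the regulator of lysosomal genes. *TFEB* was a DEG in 1 of the 6 fits without 1 library. The autophagy genes *ATG5* and *MAP1LC3B* fell by the adjusted p, with log2 fold changes of -0.77 and -0.67.

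Most mitotic genes fell, and so did part of the genes of replication. Of 31 mitotic genes tested, none rose, 21 passed the adjusted p as lower and 9 were DEGs, with a median of -0.87 and library medians of -0.82, -0.66 and -0.90. *CENPE*, a kinetochore motor, had 86.6, 102 and 88.6 CPM in Control against 29.4, 40.7 and 37.1 CPM, a log2 fold change of -1.37 (SE 0.17, adjusted p = 0.0016). *AURKA*, *TTK*, *PLK1*, *TOP2A*, *ECT2*, *KIF11*, *BUB1* and *CCNB1* were the others, at -1.26 to -1.04. *MKI67*, the common marker of cycling cells, overlapped between the groups, with 302, 397 and 353 CPM against 186, 323 and 255 CPM. Of 35 DNA replication and E2F genes, 15 fell by the adjusted p and none rose, or 29 without CTCFL-KD replicate 1. The median was -0.45. Only *UHRF1*, *GINS4* and *CCNE2* were DEGs there, a share near the 7.59% of all genes tested that were DEGs lower, and *UHRF1* alone held in all 6 fits without 1 library. *MCM2*, a subunit of the replicative helicase, had 195, 205 and 205 CPM against 63.5, 165 and 142 CPM, and fell without CTCFL-KD replicate 1 (-0.40, adjusted p = 3.7e-05). Among 17 cyclins, CDKs and inhibitors of G1, *CCND1* and *CDKN2B* were the DEGs, both lower, and 4 passed the adjusted p as lower, with a median of -0.30 and shares near those of all genes tested (7.59% and 16.0%). Without CTCFL-KD replicate 1, 8 passed as lower and 2 as higher, and with length and GC offsets 7 as lower. *CDKN2B*, the inhibitor p15 and a TGF-beta target, had 117, 115 and 127 CPM in Control and 12.4, 20.2 and 21.2 CPM in CTCFL-KD. *CCNE1*, which is amplified in this line, had 125, 117 and 115 CPM against 151, 106 and 96.2 CPM, and its log2 fold change was -0.02, or -0.24 without CTCFL-KD replicate 1. Of 6 tested genes of its amplicon, *PLEKHF1* was the only DEG. It was higher, and it was not a DEG without each Control library in turn or without CTCFL-KD replicate 1. The list median was 0.34, or 0.18 without that replicate, where 3 of the genes rose and 2 fell by the adjusted p. Among 22 p53 targets 3 were DEGs lower (*PLK3*, *FAS* and *PLK2*) and none higher, with a median of 0.01 (-0.10 without CTCFL-KD replicate 1), while *CDKN1A* had 3.18 to 4.34 CPM in Control and 4.4 to 5.34 CPM in CTCFL-KD. Of 15 BCL2 family genes *BCL2* was the only DEG, with a log2 fold change of 1.21, and the list median was -0.07, or -0.22 without CTCFL-KD replicate 1 and -0.27 with length and GC offsets.

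Many epithelial markers rose. Of 21 tested markers of ovarian carcinoma, 9 were DEGs higher and 3 lower, with a median of 0.91, or 0.56 without CTCFL-KD replicate 1. *MUC16*, which carries the serum antigen CA-125, had 186, 279 and 192 CPM in Control against 994, 1958 and 1759 CPM, a log2 fold change of 2.84 (SE 0.33, adjusted p = 0.00124). *FOLR1*, *CLDN3*, *MAL*, *KRT18*, *MSLN*, *CLDN4*, *KRT8* and *EPCAM* also rose, while *SPP1* (osteopontin), *MECOM* and *KRT7* fell. Of 33 genes of epithelial junctions and their regulators, 12 were DEGs higher and 2 lower (*CLDN1* and *OVOL1*), with a median of 0.66. The tight junction gene *CLDN3* had 103, 91.1 and 98.4 CPM against 960.0, 428 and 449 CPM, 6.28-fold higher. *CDH1*, E-cadherin, had 178, 198 and 192 CPM against 278, 370.0 and 376 CPM, a rise of 0.85 on the log2 scale (adjusted p = 0.00891) below the threshold on the fold. Of 10 tested mesenchymal genes 3 rose (*TCF4*, *TWIST1* and *CDH2*) and 3 fell (*MMP2*, *FN1* and *SNAI1*), with a median of -0.42. With DESeq2, which also covers listed genes removed by the filter on low counts, 5 fell. *MMP2*, gelatinase A, had 88.9, 88.8 and 91.7 CPM in Control and 18.2, 10.1 and 11.9 CPM in CTCFL-KD.

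Genes of the matrix and its receptors moved both ways. Of 31 tested matrix genes 13 were DEGs higher and 7 lower, with a median of 0.65, or 0.93 without CTCFL-KD replicate 1. Those that rose included chains of basement membrane laminins and type IV collagen (*LAMA1*, *LAMA4*, *LAMB1*, *LAMB2*, *LAMC3*, *COL4A2*, *COL4A5* and *COL4A6*). *COL5A2*, a chain of fibrillar type V collagen, had 8.6, 9.35 and 8.23 CPM in Control and 63.5, 114 and 120.0 CPM in CTCFL-KD, 11.4-fold higher. Those that fell included the laminin-332 chains *LAMA3* (-3.48) and *LAMB3* (-1.01), the hemidesmosome collagen *COL17A1* (-2.82), its anchoring partner *COL7A1* (-1.89) and fibronectin, *FN1* (-1.90). *THBS1* and *NID2* completed the 7, and *NID2* was a DEG in none of the fits without 1 library. *LAMB3* was one in 3 of the 6, and not without Control replicate 2 or CTCFL-KD replicate 2 or 3. Of 17 integrins, *ITGB3*, *ITGB6*, *ITGA3* and *ITGB2* fell and *ITGB5* and *ITGA1* rose (*ITGA1* not without Control replicate 1 or 3), with a median of 0.20, or -0.03 without CTCFL-KD replicate 1. *ITGB3* had 113, 116 and 123 CPM in Control and 6.5, 3.17 and 5.29 CPM in CTCFL-KD. *ITGB1*, the shared beta chain of most integrins, overlapped between the groups and rose without CTCFL-KD replicate 1 (0.60). In the list of proteases and inhibitors 5 of 22 rose (*MMP14*, *ADAMTS9*, *ADAMTS1*, *MMP11* and *MMP15*, or 3 without Control replicate 1) and 6 fell, among them *PLAU*, urokinase (126, 127 and 128 CPM against 70.4, 43.1 and 58.4 CPM). Its median was 0.16, and 3 genes were DEGs higher with length and GC offsets.

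Of 38 actin cytoskeleton genes 14 passed the adjusted p as lower and 2 as higher. As DEGs 7 were lower and *MYL9* higher, with a median of -0.48, and without CTCFL-KD replicate 1 the number lower by the adjusted p was 30. *ZYX*, the focal adhesion protein zyxin, had 228, 210.0 and 228 CPM in Control against 62.7, 67.3 and 67.0 CPM, a log2 fold change of -1.76 (SE 0.13, adjusted p = 0.00028). Of 13 tubulin and microtubule genes 4 were DEGs lower (*TUBA4A*, *TUBB3*, *MAP4* and *TUBA1C*) and none higher, with a median of -0.96. The number of DEGs lower was 7 without CTCFL-KD replicate 1, 9 with length and GC offsets, 8 with the replicate block and 9 with DESeq2. *TUBA4A* had 474, 435 and 469 CPM against 74.4, 33.6 and 34.0 CPM, and *TUBB3*, the neuronal beta-tubulin, 5.83, 5.75 and 4.64 CPM against 0.623, 0.645 and 0.972 CPM. Tubulin and actin genes have near-identical copies, and the handling of reads shared between copies is not given in the sources used here, so these values carry that doubt. Of 16 neuronal genes, 6 rose (*KIF1A*, *NCAM1*, *DPYSL3*, *SYT1*, *CHGA* and *NFASC*) and 5 fell (*MAP2*, *NEFH*, *MAP1B*, *L1CAM* and *NRCAM*), with a median of 0.40, or 0.25 with length and GC offsets. The DESeq2 median of 1.17 also covers listed genes removed by the filter on low counts, so it is not over the same genes. *MAP2* had 164, 184 and 184 CPM in Control and 3.47, 7.45 and 7.77 CPM in CTCFL-KD. Of 20 YAP and TEAD targets, 4 rose (*NT5E*, *FJX1*, *PTPN14* and *AXL*) and *DOCK5* and *F3* fell, with a median of 0.01 (0.19 without CTCFL-KD replicate 1). The 4 were 2 without Control replicate 2, Control replicate 3 or CTCFL-KD replicate 3, and 2 with length and GC offsets or DESeq2.

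Many growth factor receptors rose, and few core genes of PI3K-Akt signalling were DEGs. Of 23 receptor tyrosine kinases tested, 10 were DEGs higher and *KIT* was the DEG lower, with a median of 0.86 and library medians of 0.79, 0.84 and 0.84. The number lower was 2 without Control replicate 2, without each CTCFL-KD library in turn, with length and GC offsets, with the block and with DESeq2. *EPHA7*, an ephrin receptor, had 0.988, 1.15 and 1.45 CPM in Control and 8.99, 18.8 and 18.8 CPM in CTCFL-KD. *ERBB2*, *ERBB3* and *ERBB4* had log2 fold changes of 1.42, 1.33 and 1.38. *EGFR* overlapped between the groups, with 214 ± 13.7 CPM in Control and 237 ± 93.5 CPM in CTCFL-KD (SD, n = 3), and replicate 1 the lowest of all libraries. Without that replicate it rose (0.44, adjusted p = 6.3e-06). Of 24 core PI3K-Akt-mTOR genes *AKT2* was the DEG higher (1.20; 2 genes were higher without CTCFL-KD replicate 2, with the block and with DESeq2) and 2 were DEGs lower, among them *INPP4B* (-2.13), with a median of -0.44, or -0.26 without CTCFL-KD replicate 1. *INPP4B*, a phosphatase that removes a PI3K product, had 20.9, 19.1 and 20.9 CPM against 2.94, 5.75 and 5.02 CPM. *PIK3CA* had 37.4, 38.0 and 42.5 CPM against 17.4, 29.9 and 35.9 CPM (adjusted p = 0.18, or 0.015 without CTCFL-KD replicate 1). Of 16 FOXO targets, *KLF15* and *ERBB3* rose and *TXNIP* and *IRS2* fell, with a median of 0.30. *IRS2*, the insulin receptor substrate, had 266, 269 and 285 CPM in Control and 44.9, 71.3 and 90.4 CPM in CTCFL-KD.

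Interferon-stimulated genes did not move together. Of 26 tested, 5 were DEGs higher (*MX2*, *MX1*, *RSAD2*, *IFI6* and *ISG20*) and 6 lower (*IFI27*, *SAMD9*, *RIGI*, *HERC5*, *OAS3* and *IFIH1*), with a median of -0.21, or -0.47 without CTCFL-KD replicate 1. The 5 were 2 without Control replicate 1 or 2, and 3 without Control replicate 3 or CTCFL-KD replicate 1. *IFIT1*, a first-line responder to interferon, had 2.37, 1.99 and 2.89 CPM in Control and 1.34, 1.82 and 1.78 CPM in CTCFL-KD (adjusted p = 0.123), and the RNA sensor gene *RIGI* had a log2 fold change of -1.21. Of 15 genes of HLA class I and peptide loading, *HLA-C* was the DEG higher and *NLRC5* and *PSMB9* were lower, with a median of 0.15. The library medians were 0.31, 0.01 and 0.03, and the median was 0.01 without CTCFL-KD replicate 1. Without CTCFL-KD replicate 2 or 3, 4 and 3 genes of the list were DEGs higher. *B2M*, the common light chain, had 307, 319 and 292 CPM against 596, 535 and 573 CPM, a rise of 0.89 on the log2 scale (adjusted p = 0.00367).

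Few genes of CTCF, cohesin, DNA methylation and Polycomb were DEGs. The shares of these 2 lists that were DEGs lower lay near the 7.59% of all genes tested. Of 15 CTCF and cohesin genes, 5 fell by the adjusted p and none rose, with a median of -0.70. Without CTCFL-KD replicate 1, 13 fell, 2 rose and the median was -0.54. *SMC3*, a cohesin arm, was the only DEG (144, 166 and 155 CPM against 47.2, 90.1 and 79.8 CPM, log2 fold change -1.10). It was no DEG without Control replicate 2 or 3 or without CTCFL-KD replicate 1 (-0.87). With the replicate block 2 genes of the list were DEGs lower. *RAD21*, the cohesin kleisin, had 383, 406 and 408 CPM against 159, 337 and 349 CPM. In the list of DNA methylation and Polycomb genes *DNMT3B* and *UHRF1* fell and *CBX8* rose, of 21 tested, with a median of -0.15. The library medians were -0.72, 0.02 and -0.07, and the list median was -0.02 without CTCFL-KD replicate 1 and -0.32 with length and GC offsets. *CBX8* was no DEG without Control replicate 1 or 2 or CTCFL-KD replicate 1, and 4 genes of the list were DEGs lower without CTCFL-KD replicate 3. *DNMT3B*, a de novo DNA methyltransferase, had 74.8, 73.0 and 75.9 CPM in Control against 13.3, 19.8 and 14.9 CPM, a log2 fold change of -2.22 (SE 0.19, adjusted p = 0.00042). *DNMT1*, the maintenance enzyme, had 210.0 ± 8.46 CPM in Control and 137 ± 41.7 CPM in CTCFL-KD (SD, n = 3, edgeR adjusted p = 0.0905, or 1.7e-05 without CTCFL-KD replicate 1). Of 25 cancer-testis genes listed only 4 passed the filter on low counts. Among these, *SSX2* fell (43.4, 44.7 and 45.0 CPM against 23.9, 17.2 and 15.1 CPM), *GAGE2A* rose and *PRAME* had 151, 163 and 159 CPM against 250.0, 178 and 171 CPM. *SSX2* and *GAGE2A* have near-identical copies, so their counts are uncertain. *GAGE2A* was no DEG without each Control library in turn.

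In the lists of energy and protein synthesis, replicate 1 of CTCFL-KD stood apart. Of 68 cytosolic ribosomal proteins the median was 0.51, and the library medians were 1.31, -0.16 and -0.18. Only *RPS16* and *RPS21* were DEGs, both higher. Without replicate 1 the median was -0.19, 37 genes fell and 10 rose by the adjusted p, and *RPS16* was the DEG left (1464, 1423 and 1417 CPM against 8975, 2958 and 3068 CPM, log2 fold change 1.80, or 1.07 without that library). *RPL3* had a log2 fold change of 0.24, and of -0.26 without that replicate. In nuclear oxidative phosphorylation 5 of 47 were DEGs higher, with a median of 0.64 and library medians of 1.39, 0.07 and 0.10. The number was 3 with the replicate block, 8 with length and GC offsets and 9 with DESeq2. Without replicate 1 the median was 0.06 and *COX6A1*, a subunit of cytochrome c oxidase, was the DEG left (97.6, 105 and 99.2 CPM against 1030, 283 and 302 CPM, log2 fold change 2.42, or 1.54 without replicate 1). Of 13 mitochondrially encoded genes 4 were DEGs higher, and 2 without replicate 1. The list median was 0.69, or 0.42 without it, and the library medians were 1.35, 0.60 and 0.19. *MT-CO1* had 11355, 11106 and 10759 CPM in Control and 20214, 17501 and 14752 CPM in CTCFL-KD, without overlap. Its adjusted p was 0.0476, and 0.103 with the replicate number as a block. None of the genes in these 3 lists was a DEG without each Control library in turn. In the proteasome 1 gene rose (*PSMC4*) and 2 fell (*PSMC6* and *PSMD14*) as DEGs, of 31, with a median of -0.37. *PSMC4* and *FBL*, named next, were no DEGs without each Control library in turn or without CTCFL-KD replicate 1. The library medians of the proteasome were 0.13, -0.71 and -0.72, and without replicate 1 the list median was -0.72, 27 genes fell by the adjusted p and 5 were DEGs lower. With length and GC offsets none was a DEG lower, and with DESeq2 4 were. Ribosome biogenesis (28 tested, 1 DEG higher, *FBL*, and 2 lower, *DDX21* and *WDR43*, median -0.41) and splicing factors (30 tested, no DEG, 13 lower by the adjusted p or 23 without replicate 1, median -0.52) had medians below 0 in all 3 CTCFL-KD libraries. With the replicate block 4 genes of ribosome biogenesis were DEGs lower and none higher, without Control replicate 1 or CTCFL-KD replicate 2 also 4 were lower, and with DESeq2 5. *DDX21* was a DEG in 2 of the 6 fits without 1 library, those without CTCFL-KD replicate 1 or 2. The nucleolar protein gene *NCL* had 992, 1141 and 1055 CPM against 742, 613 and 554 CPM, and the splicing factor gene *SRSF3* 286, 272 and 286 CPM against 296, 168 and 161 CPM.

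**Figure D4:**
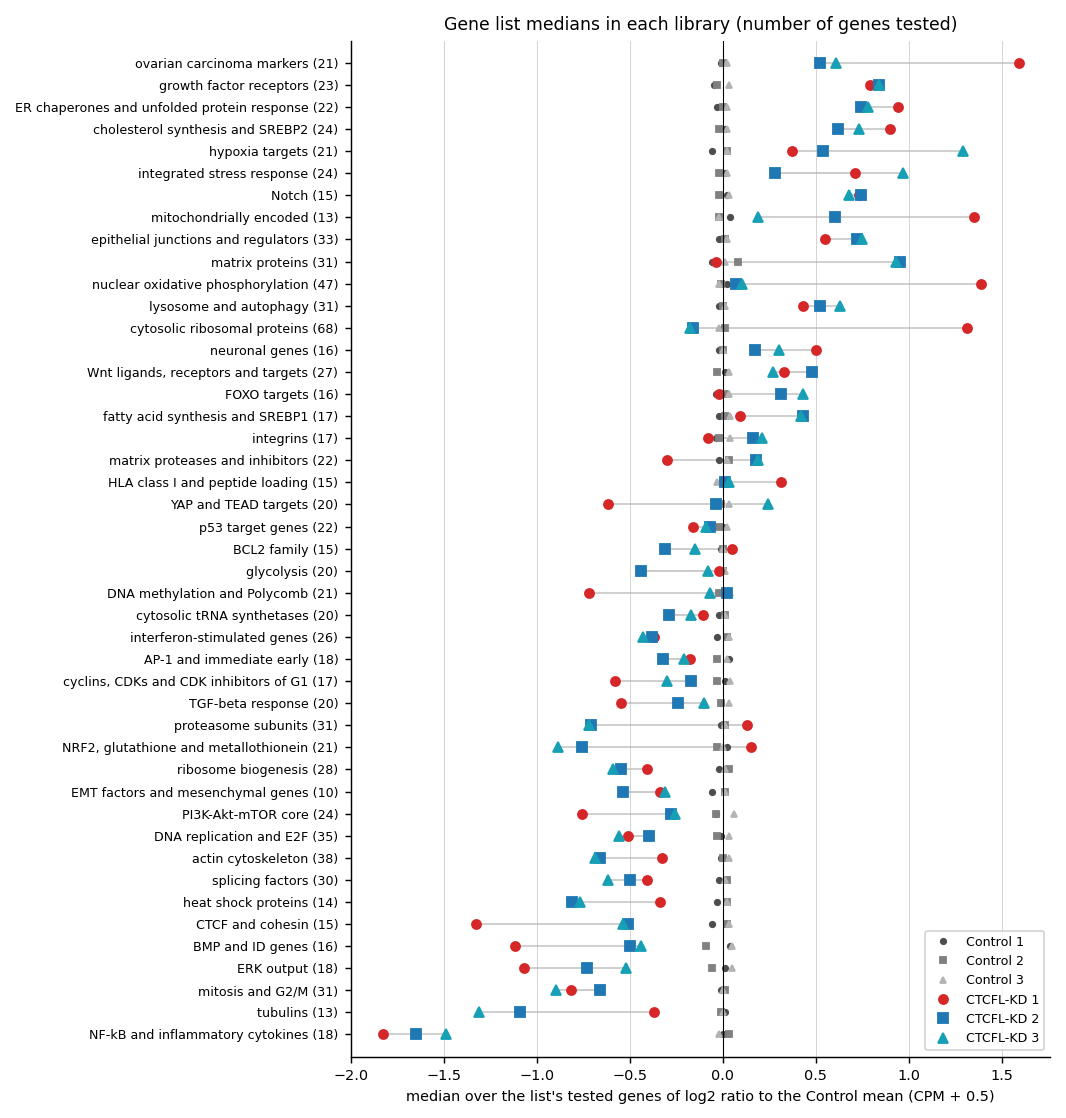
Median log2 ratio to the Control mean (x axis, from CPM + 0.5) over the tested genes of each list with at least 10 such genes (y axis, number tested in brackets), with 1 symbol per library. The NF-kB list is the lowest in each CTCFL-KD library (-1.83, -1.65 and -1.49), and replicate 1 stands far from the other CTCFL-KD libraries in ribosomal proteins and oxidative phosphorylation.

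Markers of other cell types than the carcinoma line were detected in both groups, and those of mesothelium had the highest sum in each library. The summed level of 12 fibroblast markers was 27.6 to 33.4 CPM in Control and 37.3 to 42.5 CPM in CTCFL-KD, most of it *COL1A1* (26.0 to 31.6 and 21.0 to 25.7 CPM). *COL1A2* and *POSTN* were the DEGs of that list, both higher, of 4 tested, and 3 of the 12 markers had no count in any Control library. The sum of 12 leukocyte markers was 1.28 to 1.84 CPM in Control and 3.02 to 4.72 CPM in CTCFL-KD. Of 3 tested there, 2 were DEGs higher, *CD14* among them, and *CSF1R* was lower. The number higher was 1 without Control replicate 1 or 3 or CTCFL-KD replicate 2 or 3, with length and GC offsets, with the block and with DESeq2. In this list 4 markers in Control and 5 in CTCFL-KD had no count in any library. The sum of 8 endothelial markers was 8.73 to 9.73 CPM against 12.3 to 20.7 CPM, with *KDR*, the VEGF receptor, higher (1.88, 2.11 and 1.25 CPM against 5.79, 13.8 and 15.2 CPM) and *PECAM1* lower (1.83, 1.72 and 1.8 CPM against 0.267, 0.235 and 0.378 CPM). The 8 mesothelial markers summed to 39.7 to 40.7 CPM in Control and 66.7 to 116 CPM in CTCFL-KD, with *UPK3B* (8.15, 6.63 and 8.53 CPM against 95.8, 50.2 and 48.8 CPM, 8.35-fold) and *CALB2* (9.69-fold, calretinin) higher and *KRT5* lower, and the 7 smooth muscle markers to 3.66 to 4.29 against 2.82 to 4.45 CPM with no DEG of 2 tested. The part of other cells in the results was not tested.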

How the data were processed

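RNA was extracted with TRIzol (stated for all libraries in the labels, and in the methods of the study for those other than CTCFL-KD), libraries were made with a stranded mRNA kit and sequenced paired-end. The authors used Trimmomatic for trimming, STAR for alignment to GRCh38 and featureCounts for counts per gene. The deposited values are these raw counts, without normalization, for 60660 genes, and the submitters' processing notes also name kallisto. Which annotation and strand option were used, and how multi-mapping reads were counted, is not given in the sources used here. The 9 single-library files matched the matrix. GENCODE release 44 named 60419 identifiers.

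Counts of the 6 libraries were fitted with edgeR 4.0.16 in R 4.3.3 (filterByExpr, TMM, quasi-likelihood with robust estimation, group as the only factor), and p-values were adjusted over all 17205 genes by Benjamini-Hochberg. Fold changes of genes with at most 3 counts in each library of a group were set against 3 counts per library and are lower bounds. Library medians of lists used log2(CPM + 0.5). DESeq2 1.42.0, other scalings and filters, length and GC offsets, leaving out each library and a fit to all 9 libraries were alternatives. DESeq2 was run on all 35746 genes with a count in the 6 libraries, so its list values can cover more genes than those tested. The 52 gene lists held 1149 genes, of which 1037 were tested. Genes were named by rule: *CTCFL* and *CTCF*, the 10 highest and 10 lowest protein-coding DEGs with separate groups and at least 10 CPM in one group, 1 key gene per list and the largest DEG of each list at that level. The 4 highest and 4 lowest lncRNA DEGs were named under the conditions set for the protein-coding ones. Further list members named beside a count were chosen after their values were seen. The members, lists and rule were chosen with earlier results of these data known.

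Replicate numbers come from the labels. Across 11632 genes, same-numbered Control and CTCFL-KD libraries deviated together from their group means (correlations of 0.38, 0.195 and 0.268, or 0.145, 0.134 and 0.123 without length and GC trends). Pairs of unlike number had correlations from -0.381 to 0.177, the highest for Control 3 with CTCFL-KD 2. Deviations within a group are tied to each other, so these correlations are not independent. The groups come from separate experiments, and the block by replicate number was fitted as well. Figures were drawn with matplotlib 3.10.9. Some members of the lists are not reported here.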

Additional observations from a re-analysis of the deposited data

How the results depend on the processing

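The number of DEGs stayed within 1.5 times of 3813 under each alternative but one: the edgeR test for a fold change beyond 2 (glmTreat) called 1436 genes, 991 higher and 445 lower. With 1 library left out in turn, 2902 to 4217 genes were DEGs and 3574 to 12154 passed the adjusted p. The highest numbers came without CTCFL-KD replicate 1 and the 3 lowest numbers of DEGs without each Control library. In a fit blocked by replicate number, 3758 genes were DEGs and 5612 passed the adjusted p. Among the 119 genes named by rule the block changed no call other than those of *MT-CO1* and *QARS1*. It did change calls of further list members named in the text: *KLF4*, *FBL* and *PSMC4* were no DEGs with it. Among 119 named genes, the log2 fold changes of *ATF4* (-0.36) and *RPL3* (-0.26) reversed without CTCFL-KD replicate 1; over the fits without 1 library they lay between -0.36 and 0.34 and between -0.26 and 0.44. The cause of these differences between fits was not tested. Without each Control library in turn 13 named genes lost the adjusted p, and without CTCFL-KD replicate 1, 22 gained it. Length and GC offsets gave 3738 DEGs, of which 3226 were shared (84.6%), and DESeq2 gave 4383. The share of DEGs that were higher was 65.7%, and 63.7% with the median-ratio scaling. The adjusted p of *CTCFL* was 0.0162 in the fit to all 9 libraries and 0.0163 with DESeq2. At 25 counts in all of Control and 1 in CTCFL-KD, the depth sets only a lower bound on its loss.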

Other observations

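Of 1909 long noncoding RNAs tested, 278 (14.6%) were DEGs higher and 162 (8.49%) lower in CTCFL-KD, which is near the shares over all genes (14.6% and 7.59%). *H19*, an imprinted RNA next to a CTCF-bound control region, had 12.5, 13.1 and 13.1 CPM in Control and 147, 98.3 and 84.0 CPM in CTCFL-KD, 8.51-fold higher. *TSPEAR-AS2*, *LINC02609* and the unnamed ENSG00000226816 rose by 3.07, 2.30 and 3.43 on the log2 scale. *UCA1*, an RNA first described in bladder cancer, had 34.1, 33.7 and 33.7 CPM against 6.85, 5.69 and 5.78 CPM. *GATA2-AS1*, *LINC01553* and ENSG00000258115 fell by 2.87, 3.08 and 2.50. These 8 RNAs were taken from lncRNA DEGs whose groups did not overlap and whose mean reached 10 CPM in one group. Each was a DEG in all 6 fits without 1 library. Whether the antisense RNAs share reads with the genes opposite them was not tested.

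Chromosomes differed in their median log2 fold change. Chromosome 19 had the highest, 0.438 over 1120 genes, with 22.3% of its genes as DEGs higher and 4.29% lower, but the median was 0.179 without CTCFL-KD replicate 1. Chromosome 21 had 0.427 over 248 genes, and 0.299 without that replicate, so the order of these chromosomes changed with 1 library. The lowest medians were those of chromosomes 13 (-0.204), 10 (-0.195) and 18 (-0.186), and without that replicate those of 5 (-0.22) and 18 (-0.208). With the median-ratio scaling chromosome 19 was at 0.41 and chromosome 13 at -0.226.

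DEGs were spread unevenly over GC content. In the fifth of genes with the highest GC content, 20.0% were DEGs higher and 3.79% lower, and in the fifth with the lowest, 6.16% were higher and 11.2% lower. Across 11610 genes, which are not independent and share the libraries, the log2 fold change had a Spearman correlation of 0.34 with GC content and of -0.17 with transcript length.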
